A study of Homo sapiens with 18 samples.

Results

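The 7 subunits of respiratory complex I that the human mitochondrial genome encodes were followed as mRNAs in 22RV1 cells given UT-143, the test compound of a study on irreversible inhibitors of androgen receptor splice variants. The members were chosen by Ensembl transcript identifier: MT-ND1 (ENST00000361390.2), MT-ND2 (ENST00000361453.3), MT-ND3 (ENST00000361227.2), MT-ND4L (ENST00000361335.1), MT-ND4 (ENST00000361381.2), MT-ND5 (ENST00000361567.2) and MT-ND6 (ENST00000361681.2). They are 7 of the 35246 transcripts in the deposited table, and all 7 were listed. The 22RV1 line, established from a human prostate cancer, carries androgen receptor splice variants beside the full-length receptor. The RNA came from 3 libraries of cells given the solvent DMSO (vehicle) and 3 of cells given 10 µM UT-143, in both arms for 20 to 24 hours in RPMI medium with serum. The labels number the replicates of each arm from 1 to 3, here called vehicle libraries and treated libraries. Nothing says that they are separate cultures, and the spread that the p-values rest on may be technical. Other samples of the series, 12 ATAC-seq samples of 22RV1 and LNCaP cells, were not analysed here.

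Complex I oxidizes NADH and passes its electrons to ubiquinone while pumping protons across the inner mitochondrial membrane. Its mitochondrially encoded subunits form the core of the membrane arm. They are transcribed as long polycistronic RNAs, 1 from each strand of the circular genome, which are cut apart mostly at the tRNAs between the genes. MT-ND1, MT-ND2, MT-ND3, MT-ND4L, MT-ND4 and MT-ND5 belong to the heavy-strand transcript. MT-ND6 comes from the light-strand transcript and is the only protein-coding mRNA on it. The amount of each mRNA therefore depends on transcription of its strand and on processing and stability of that mRNA.

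Positions of the genes were taken from the RefSeq table of GRCh38.p14 and lie on chromosome M. MT-ND1 spans positions 3307 to 4262 and MT-ND2 4470 to 5511. MT-ND3 spans 10059 to 10404 and is separated by 65 bases, which hold a tRNA gene, from MT-ND4L at 10470 to 10766. MT-ND4 spans 10760 to 12137, so that it shares 7 bases with MT-ND4L, and the 2 reading frames are known to be carried on 1 bicistronic mRNA. Here mRNAs are counted by gene, so MT-ND4L and MT-ND4 count as 2 of the 7 and both enter the means over heavy-strand mRNAs. MT-ND5 spans 12337 to 14148, and MT-ND6, on the opposite strand, abuts it and spans 14149 to 14673. All 7 genes are without introns. Reads in the 7 shared bases can belong to either MT-ND4L or MT-ND4. Whether reads were assigned by strand is not given in the sources used here, and without strand the reads of MT-ND6 cannot be told apart from heavy-strand RNA that runs opposite to it. How reads shared with nuclear copies of these genes were assigned is not given either.

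Values are CPM, in which the reads of each library are scaled to the same sum, normalized by the authors and rounded to whole numbers. The lowest value of a member was 191 CPM, where rounding leaves an uncertainty of at most 0.262%. Treated library 3 stood apart from the other libraries over the whole table. Its listed values summed to 923170 CPM, against 896070 and 900414 CPM in treated libraries 1 and 2 and 889253 to 892558 CPM in vehicle. In it 6674 transcripts were at 5 CPM or less, against 2505 and 2868 in treated libraries 1 and 2 and 2049 to 2397 in vehicle. On both measures treated libraries 1 and 2 thus also lay above all vehicle libraries, by less. The values of treated library 3 are therefore given apart, and the tests were repeated without it. The reason for its difference was not tested.

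The mRNAs were among the most abundant of the table. By mean over the 6 libraries, MT-ND4 ranked 2 of 35246 transcripts, MT-ND2 ranked 8, MT-ND5 ranked 9, MT-ND1 ranked 10 and MT-ND6 ranked 12, with MT-ND4L at 25 and MT-ND3 at 35. Of the sum of all listed values, the 7 together held 2.36%, 2.65% and 3.06% in vehicle libraries 1, 2 and 3. They held 2.89% and 3.16% in treated libraries 1 and 2 and 1.74% in treated library 3, the lowest of the 6. The mean was 2.69% ± 0.35 in vehicle and 2.60% ± 0.75 after UT-143 (SD, n = 3 each), a difference smaller than the spread (2-sided exact permutation test, p = 0.9, where the smallest possible p is 0.1). Without treated library 3 the difference was 0.33 percentage points upward (exact permutation test, p = 0.3), so the sign of this difference rested on that library. It also turned to 0.092 percentage points upward when vehicle library 3 was left out.

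**Figure D1:**
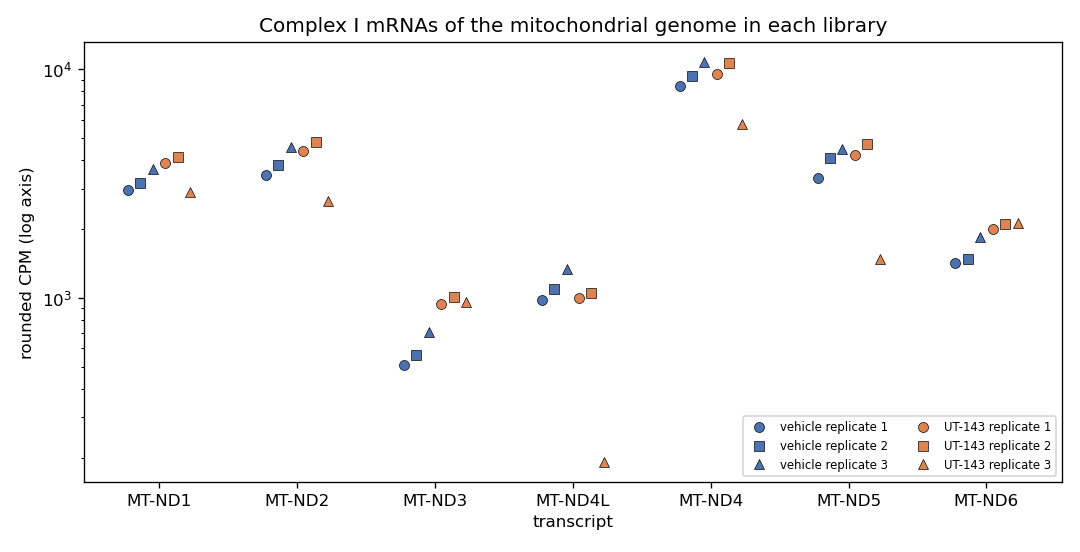
Rounded CPM (vertical log axis) of the 7 complex I mRNAs in each library; blue symbols are vehicle and orange symbols UT-143 replicates, 1 symbol per library. MT-ND3 and MT-ND6 lie above all vehicle values in all 3 UT-143 libraries, and the orange triangle of UT-143 replicate 3 is far below the others for MT-ND4L (191 CPM) and MT-ND5 (1479 CPM).

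Per length of gene, MT-ND4 stood well above the other mRNAs in the vehicle libraries and in treated libraries 1 and 2. On the scale of CPM per kilobase of RefSeq gene span, MT-ND4 was highest at 6895 ± 838 in vehicle (SD, n = 3). Next came MT-ND4L at 3836 ± 621, MT-ND2 at 3780 ± 559 and MT-ND1 at 3422 ± 379 (SD, n = 3 each). The ranges of these 3 over the vehicle libraries overlapped. MT-ND6 followed at 3010.2 ± 450, with a range that overlapped that of MT-ND1, then MT-ND5 at 2188 ± 309 and MT-ND3 at 1713 ± 296, whose ranges overlapped each other but not that of MT-ND6. Within each of the 3 vehicle libraries the order was nevertheless the same, with MT-ND4L and MT-ND2 close together (3296 and 3292 in vehicle library 1). In treated libraries 1 and 2 the order was MT-ND4, MT-ND2, MT-ND1, MT-ND6, MT-ND4L, MT-ND3 and MT-ND5. In treated library 3 it was MT-ND4, MT-ND6, MT-ND1, MT-ND3, MT-ND2, MT-ND5 and MT-ND4L, with MT-ND4 and MT-ND6 close together (4176 and 4044). MT-ND3, the least abundant per kilobase in vehicle, stood at 2702, 2902 and 2777 in treated libraries 1, 2 and 3. MT-ND4L, second in vehicle, stood at 3364 and 3535 in treated libraries 1 and 2 and at 643 in treated library 3, the lowest per-kilobase level of any member in that library.

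MT-ND3 showed the clearest difference between the groups. This small subunit has a loop close to the ubiquinone site whose cysteine becomes exposed or buried as the complex changes between its active and resting forms. MT-ND3 was at 509, 562 and 707 CPM in vehicle libraries 1, 2 and 3 and at 935, 1004 and 961 CPM in treated libraries 1, 2 and 3. All 3 UT-143 values lay above all 3 vehicle values, and treated library 3 sat between the other UT-143 libraries. On the log2(CPM + 1) scale, used for the differences below unless a unit is given, MT-ND3 differed by 0.72 (standard error 0.15, 95% interval 0.36 to 1.08, limma, n = 3 each). Its adjusted p over all transcripts was 0.058, short of the threshold of 0.05, with an unadjusted p of 0.0026 (limma). With treated library 3 left out MT-ND3 again differed by 0.72, with a standard error of 0.16 and an adjusted p of 0.0504 (limma). The authors' deposited table gives MT-ND3 a ratio of 1.63 and an unadjusted p of 0.016.

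MT-ND6, the light-strand subunit, also lay higher in every UT-143 library. It was at 1417, 1473 and 1851 CPM in vehicle libraries 1, 2 and 3 and at 2009, 2103 and 2123 CPM in treated libraries 1, 2 and 3. The groups did not overlap, and the UT-143 values lay closer together (SD 60.9) than the vehicle values (SD 236). MT-ND6 differed by 0.40 (standard error 0.14, 95% interval 0.061 to 0.75, limma, adjusted p = 0.15, unadjusted p = 0.028). Leaving out treated library 3 gave 0.39 (limma, adjusted p = 0.12). The authors' deposited table gives MT-ND6 a ratio of 1.32 and an unadjusted p of 0.059.

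MT-ND4L stood out for a single library. This small hydrophobic subunit lies in the membrane arm, and its reading frame precedes and overlaps that of MT-ND4. It was at 979, 1098 and 1341 CPM in vehicle libraries 1, 2 and 3, at 999 and 1050 CPM in treated libraries 1 and 2 and at 191 CPM in treated library 3. The first 2 UT-143 values were inside the vehicle range, and the third was 16.8% of the vehicle mean. The log2 difference of MT-ND4L was -0.95 (standard error 0.67, 95% interval -2.58 to 0.69, limma, adjusted p = 0.38). In the other 5 libraries it was -0.14 (standard error 0.15, limma, adjusted p = 0.54).

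MT-ND4 and MT-ND5, antiporter-like subunits of the proton-pumping arm, likewise had 1 low library. MT-ND4 was at 8424, 9361 and 10720 CPM in vehicle libraries 1, 2 and 3, at 9496 and 10679 CPM in treated libraries 1 and 2 and at 5754 CPM in treated library 3. MT-ND5 was at 3360, 4073 and 4463 CPM in vehicle, at 4196 and 4694 CPM in treated libraries 1 and 2 and at 1479 CPM in treated library 3. For both genes treated library 3 was the lowest of the 6 libraries while treated libraries 1 and 2 were within or slightly above the vehicle range. The difference of MT-ND4 was -0.18 with a 95% interval of -0.84 to 0.48 (limma, adjusted p = 0.67), and 0.091 without treated library 3. The difference of MT-ND5 was -0.36 with a 95% interval of -1.47 to 0.76 (limma, adjusted p = 0.61), and 0.17 without that library, so the sign of both rested on it.

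MT-ND1, which lines the entrance of the ubiquinone site, and MT-ND2, another antiporter-like subunit, had the smallest differences with 6 libraries. MT-ND1 was at 2964, 3179 and 3671 CPM in vehicle, at 3906 and 4123 CPM in treated libraries 1 and 2 and at 2908 CPM in treated library 3. Treated libraries 1 and 2 were thus above all vehicle values of MT-ND1 and treated library 3 below them. Its difference was 0.15 with a 95% interval of -0.30 to 0.59 (limma, adjusted p = 0.60), and 0.30 without treated library 3 (limma, adjusted p = 0.12). MT-ND2 was at 3430, 3811 and 4574 CPM in vehicle, at 4385 and 4797 CPM in treated libraries 1 and 2 and at 2664 CPM in treated library 3, the lowest of the 6. Its difference was -0.031 with a 95% interval of -0.67 to 0.61 (limma, adjusted p = 0.95), and 0.23 without treated library 3. The sign for MT-ND2 also turned under other scalings between libraries, to 0.039 with median-of-ratios scaling, 0.040 with trimmed mean scaling and 0.013 with quantile normalization. The authors' deposited ratio of means for MT-ND2 was 1.003, likewise upward.

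In all, 0 of the 7 mRNAs passed an adjusted p of 0.05 in limma in either direction, where 1.29% of all transcripts were called higher and 2.08% lower. At an unadjusted p under 0.05, 2 of 7 were higher (MT-ND3 and MT-ND6) and 0 lower, against 10.7% and 15.7% of all transcripts. The UT-143 values lay entirely above the vehicle values in 2 of 7 and entirely below in 0 of 7, against 13.1% and 22.3% of all transcripts. Treated libraries 1 and 2 alone lay above all vehicle values in 3 of 7 (MT-ND1, MT-ND3 and MT-ND6) and below in 0 of 7, against 20.7% and 27.0% of all transcripts. Without treated library 3, 0 of 7 passed the adjusted threshold, where 8.65% of transcripts were called higher and 14.6% lower. At an unadjusted p under 0.05, 1 of 7 was then higher (MT-ND3) against 17.0% of all transcripts, and 0 lower against 24.4%. The median log2 difference was -0.031 over the 7 mRNAs and -0.058 over all transcripts with 6 libraries, and 0.23 against -0.018 without treated library 3. Over the 59 transcripts that averaged 500 CPM or more, which include the 7, the median was 0.16 with 6 libraries and 0.088 without treated library 3. The number of called members depended on which transcripts were tested: when rows with a mean under 20 CPM were not tested, MT-ND3 passed with the same difference of 0.72 (limma, adjusted p = 0.038, against 0.038 to 0.26 over its 17 alternatives).

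**Figure D2:**
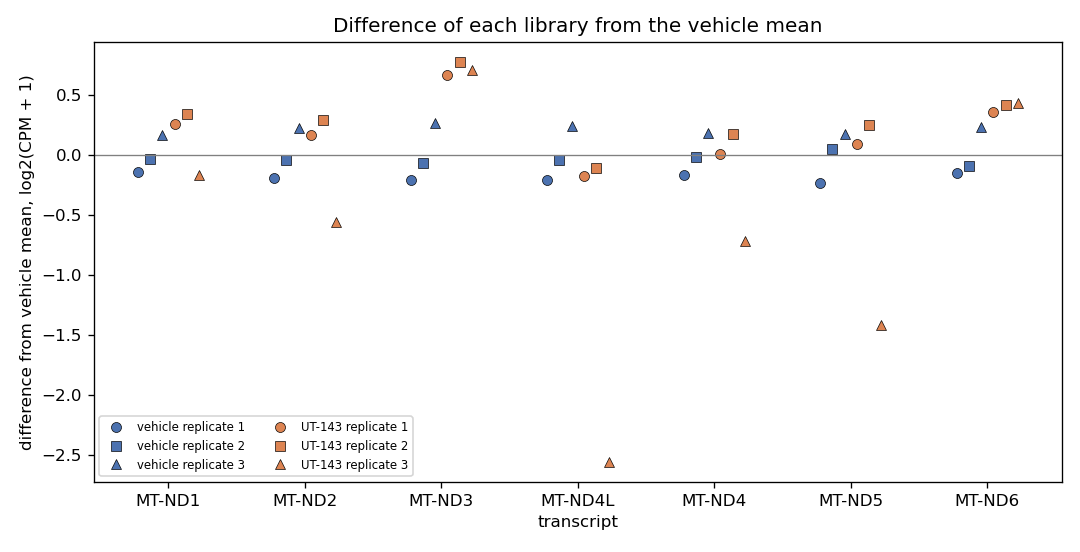
Difference of each library from the vehicle mean on the log2(CPM + 1) scale (vertical axis) for the 7 mRNAs, with 1 symbol per library, vehicle blue and UT-143 orange. In UT-143 replicate 3 the differences run from -2.56 for MT-ND4L to 0.71 for MT-ND3, while UT-143 replicates 1 and 2 lie between -0.18 and 0.77.

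In treated library 3 the heavy-strand mRNAs did not differ from vehicle by a common factor. On the log2 scale its difference from the vehicle mean was 0.71 for MT-ND3, -0.16 for MT-ND1, -0.55 for MT-ND2, -0.72 for MT-ND4, -1.41 for MT-ND5 and -2.56 for MT-ND4L. MT-ND3 and MT-ND4L, which lie 65 bases apart on 1 strand and are the shortest genes of the set at 346 and 297 bases, were the highest and the lowest. The light-strand MT-ND6 was at 0.44. The median difference in this library was 0.29 over the 59 transcripts that averaged 500 CPM or more and -0.15 over all transcripts. Of the 59, 1 was as low as MT-ND4L, namely MT-ND4L itself. At or below MT-ND5 were 3, with MT-ND5 and MT-ND4L among them, and 8 were at or above MT-ND3, itself included. Over all 35246 transcripts, 157 (0.445%) were at or below MT-ND4L. This is a description of 1 library with no test.

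Heavy-strand and light-strand mRNAs were next compared inside each library, which removes the scaling between libraries apart from the pseudocount. The mean log2(CPM + 1) of the 6 heavy-strand mRNAs exceeded that of MT-ND6 by 0.69, 0.80 and 0.71 in vehicle libraries 1, 2 and 3. The excess was 0.55 and 0.60 in treated libraries 1 and 2 and -0.49 in treated library 3, where MT-ND6 lay above the heavy-strand mean. All 3 UT-143 values were thus below all 3 vehicle values. The excess averaged 0.73 ± 0.059 in vehicle and 0.22 ± 0.61 after UT-143 (SD, n = 3 each), a difference of -0.51 (2-sided exact permutation test, p = 0.1, the smallest that 3 against 3 libraries can give). Without treated library 3 the difference was -0.16, so 1 library set most of its size. The remaining pair lay below vehicle (2-sided exact permutation test, p = 0.1, again the smallest possible). Such separation was common among log2 ratios of 2 transcripts that both averaged 500 CPM or more. The groups did not overlap in 40.4% of those ratios, and in 68.2% without treated library 3. A ratio of 2 transcripts is not the same measure as this mean over 6. Taken as sums of CPM, the heavy-strand mRNAs were 13.9, 15.0 and 13.8 times MT-ND6 in vehicle, 11.9 and 12.5 times in treated libraries 1 and 2 and 6.57 times in treated library 3.

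**Figure D3:**
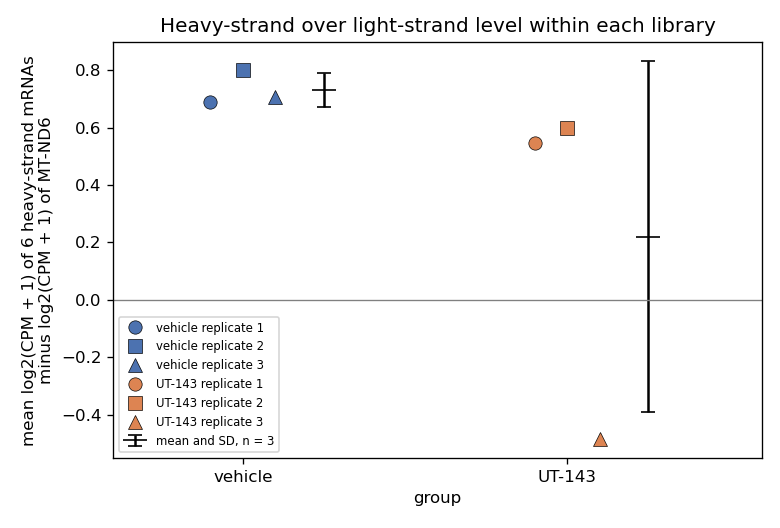
Mean log2(CPM + 1) of the 6 heavy-strand complex I mRNAs minus log2(CPM + 1) of the light-strand MT-ND6 (vertical axis) in each vehicle (blue) and UT-143 (orange) library; black bars are the mean and SD of 3 libraries. The vehicle libraries lie at 0.69 to 0.80, UT-143 replicates 1 and 2 at 0.55 and 0.60, and UT-143 replicate 3 at -0.49.

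The lower ratio was carried unevenly by the heavy-strand genes. MT-ND3 over MT-ND6 went the other way from the rest: it was -1.48, -1.39 and -1.39 on the log2 scale in vehicle and -1.10, -1.07 and -1.14 in the UT-143 libraries. MT-ND5 over MT-ND6, neighbours on opposite strands, was 1.25, 1.47 and 1.27 in vehicle, 1.06 and 1.16 in treated libraries 1 and 2 and -0.52 in treated library 3. MT-ND4L over MT-ND6 was -0.53, -0.42 and -0.46 in vehicle, -1.01 and -1.001 in treated libraries 1 and 2 and -3.47 in treated library 3. In all 6 pairs with MT-ND6 the groups did not overlap, with MT-ND3 higher and the other 5 heavy-strand mRNAs lower relative to MT-ND6 after UT-143, and the same held for all 6 without treated library 3. Among all 1711 pairs of the 59 transcripts that averaged 500 CPM or more, 40.4% did not overlap, and 68.2% without treated library 3.

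Relative to each other, the mRNAs were tightly set in vehicle cells. Over the vehicle libraries the SD of a member's log2 level was 0.16 to 0.24, but the SD of its level relative to the mean of the other heavy-strand mRNAs was only 0.016 to 0.075. Vehicle libraries thus differed mainly by a factor shared by the set. Against that narrow spread, MT-ND3 stood at -2.60, -2.63 and -2.51 relative to the other heavy-strand mRNAs in vehicle, at -1.98 and -1.998 in treated libraries 1 and 2 and at -0.79 in treated library 3. MT-ND4L stood at -1.47, -1.47 and -1.41 in vehicle, at -1.86 and -1.92 in treated libraries 1 and 2 and at -3.58 in treated library 3. The groups of both mRNAs were apart, as were those of MT-ND6, whose relative level is the heavy-strand to light-strand difference with its sign turned. Among pairs of transcripts that averaged 500 CPM or more, the log2 ratios were apart in 40.4%, and in 68.2% without treated library 3. Treated libraries 1 and 2 differed from the vehicle mean by 0.59 for MT-ND3 and -0.44 for MT-ND4L, where the vehicle SD was 0.059 and 0.036. These relative levels are not independent. MT-ND3 and MT-ND4L are each part of the mean that the other is set against, so a shift of either moves the other the opposite way. By its own CPM, MT-ND3 differed from vehicle by 0.67, 0.77 and 0.71 in treated libraries 1, 2 and 3. MT-ND4L was inside the vehicle range of CPM in treated libraries 1 and 2.

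**Figure D4:**
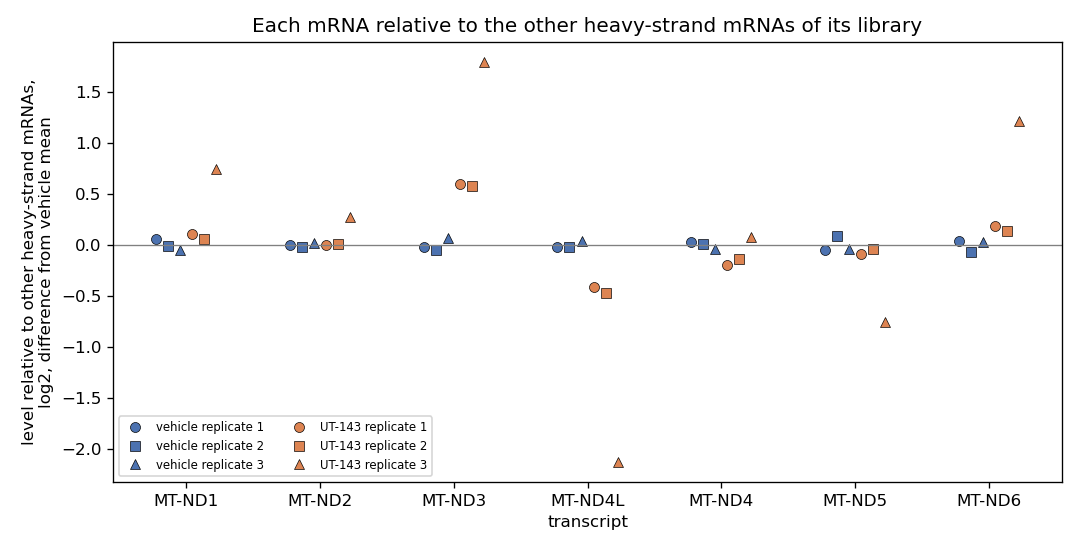
Level of each mRNA relative to the mean of the other heavy-strand mRNAs of its library, on the log2 scale and as a difference from the vehicle mean (vertical axis), with 1 symbol per library, vehicle blue and UT-143 orange. Vehicle libraries stay near 0, MT-ND3 is higher and MT-ND4L lower in all 3 UT-143 libraries, and MT-ND2 stays near the vehicle level in UT-143 replicates 1 and 2.

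For the 7 mRNAs the exact permutation test of this relative level gave p = 0.1 for MT-ND3, MT-ND4L and MT-ND6, 0.2 for MT-ND1 and MT-ND5, 0.4 for MT-ND4 and 0.5 for MT-ND2. With Benjamini-Hochberg adjustment over the 7 tests the lowest was 0.23 (exact permutation test), and no test of this design can go below 0.1 before adjustment. The differences with 6 libraries were 0.99 for MT-ND3, -1.01 for MT-ND4L, 0.51 for MT-ND6, 0.30 for MT-ND1, -0.30 for MT-ND5, -0.084 for MT-ND4 and 0.092 for MT-ND2. For all but MT-ND4 and MT-ND2 treated libraries 1 and 2 differed, on average, in the direction of treated library 3 and by less. For MT-ND4 they lay below vehicle and treated library 3 above it, and for MT-ND2 they were level with vehicle. Leaving out treated library 3 gave 0.59, -0.44, 0.16, 0.086, -0.068, -0.17 and 0.0011 in the same order.

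The CPM of MT-ND4L and MT-ND4, whose reading frames share an mRNA, did not keep a fixed ratio. Their ratio compares reads assigned to 2 parts of that mRNA, and why it differed was not tested. MT-ND4L was 11.6%, 11.7% and 12.5% of MT-ND4 in the vehicle libraries by CPM. It was 10.5% and 9.83% in treated libraries 1 and 2 and 3.32% in treated library 3. The mean was 11.95% ± 0.48 in vehicle and 7.89% ± 3.97 after UT-143 (SD, n = 3 each), with no overlap between the groups (2-sided exact permutation test, p = 0.1, the smallest possible). With treated libraries 1 and 2 alone the difference was -1.78 percentage points in place of -4.06. Pairs of transcripts that averaged 500 CPM or more had no overlap of their log2 ratios in 40.4%, and in 68.2% without treated library 3.

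MT-ND3 and MT-ND4L, neighbours on the heavy strand, gave the largest log2 difference of the 21 pairs. MT-ND3 was 0.520, 0.512 and 0.527 times MT-ND4L in the vehicle libraries. It was 0.936 and 0.956 times MT-ND4L in treated libraries 1 and 2 and 5.03 times in treated library 3. On the log2 scale the ratio averaged -0.94 ± 0.021 in vehicle and 0.72 ± 1.39 after UT-143 (SD, n = 3 each), and treated libraries 1 and 2 lay 0.86 above the vehicle mean.

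Over the 21 pairs of the 7 mRNAs, the within-library log2 ratio did not overlap between the groups in 17 (81.0%), and in 18 (85.7%) without treated library 3. These counts stand beside the 40.4% and 68.2% given above for pairs of abundant transcripts, a set that includes the 7. Pairs share their members, so these shares are descriptions. The 4 pairs whose groups overlapped were MT-ND1 over MT-ND2, MT-ND1 over MT-ND5, MT-ND2 over MT-ND5 and MT-ND4 over MT-ND5. The smallest p over the 21 pairs was 0.1, or 0.12 after Benjamini-Hochberg adjustment (exact permutation test).

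Over all 6 libraries the heavy-strand mRNAs other than MT-ND3 varied together. Pearson's r with the mean profile of the 6 heavy-strand mRNAs, which includes the mRNA itself, was 0.99 for MT-ND2, 0.99 for MT-ND4, 0.98 for MT-ND5, 0.92 for MT-ND4L and 0.84 for MT-ND1, against -0.0062 for MT-ND3 and -0.024 for MT-ND6. Over the 5 libraries without treated library 3 it was 0.90 for MT-ND3 and 0.95 for MT-ND6, 0.93 or more for MT-ND1, MT-ND2, MT-ND4 and MT-ND5, and 0.41 for MT-ND4L. A correlation measures whether levels vary together over libraries and not the offset between the groups given above. The values are descriptions of few libraries. Among 3137 other transcripts that averaged 50 CPM or more, the most alike to that mean profile were ENST00000361624.2 and ENST00000361789.2, each with r = 0.99. ENST00000361624.2 was at 16115, 16879 and 20479 CPM in vehicle libraries 1, 2 and 3, at 19436 and 21046 CPM in treated libraries 1 and 2 and at 12518 CPM in treated library 3. ENST00000361789.2 was at 3636, 3926 and 4346 CPM in vehicle, at 4235 and 4783 CPM in treated libraries 1 and 2 and at 2924 CPM in treated library 3. As with MT-ND2 and MT-ND4, both had their lowest value in treated library 3, and neither passed the threshold (limma, adjusted p = 0.93 and 0.96).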

How the data were processed

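RNA sequencing of 6 libraries (3 vehicle, 3 UT-143) was used. Per the submitters' processing notes, the build is hg38, and the tools listed, with no role or order, are STAR 2.7.10a, FastQC and HOMER. The deposited values are a normalized score, CPM rounded to whole numbers by the authors, and depth in reads is unknown. The authors' deposited ratio of means and unadjusted p-value were copied for the 7 mRNAs. Both are given above for MT-ND3 and MT-ND6 only. For the rest the authors' deposited unadjusted p ran from 0.29 (MT-ND4L) to 0.99 (MT-ND2). How reads, shared reads and strand were counted is not given in the sources used here.

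Groups came from sample titles and columns from the identifiers in the descriptions. Values were transformed as log2(CPM + 1) and fitted over all 35246 transcripts with limma 3.58.1 in R 4.3.3 (group as the only term, mean-variance trend, Benjamini-Hochberg adjustment, threshold 0.05). The fit was tested on simulated data. Single quantities per library were compared with 2-sided exact permutation tests over libraries. Figures were drawn with matplotlib 3.10.9.

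The members and lists were chosen with earlier results of these data known. All 7 members were named by rule, with the 2 transcripts most alike. Symbols of the members came with the rule, and all 7 were found in the RefSeq table by symbol. Lists of other mitochondrial RNAs, nuclear complex I subunits, mitochondrial RNA handling genes and prostate and other cell type markers were not analysed here, since the table pairs no transcript with a gene, so the cell line was not checked by its markers. No sequence of these genes was used here.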

Additional observations from a re-analysis of the deposited data

How the results depend on the processing

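The heavy-strand to light-strand difference of -0.51 kept its direction in all 11 alternatives. Other pseudocounts (0.25 and 4), summed CPM and leaving out MT-ND4 gave -0.50 to -0.52. MT-ND4, at -0.18, was the only member left out. MT-ND4L (-0.95) and MT-ND3 (0.72) differed more and always stayed in, so this narrow range does not cover the choice of members. Leaving out each library gave -0.70 to -0.16. The exact permutation test gave p = 0.4, 0.5 and 0.4 without vehicle libraries 1, 2 and 3, and p = 0.1 without each UT-143 library. The difference in the members' percent of the listed total turned when a library was left out (-0.37 to 0.33 percentage points). Members called higher went from 0 to 1 (MT-ND3) with only transcripts of at least 20 CPM tested, a fit of fewer transcripts. The other alternatives called 0 members in limma, but with the replicate block and without any 1 library other than UT-143 replicate 3 the fit called 0 of all 35246 transcripts, so those say nothing of the members. At a threshold of 0.01 it called only 2 of all transcripts higher and 7 lower, so that setting says little of them either. MT-ND2 turned to 0.039 with median-of-ratios, 0.040 with trimmed mean and 0.013 with quantile scaling. Leaving out each library gave -0.19 to 0.23 for MT-ND2, -0.36 to 0.091 for MT-ND4 and -0.66 to 0.17 for MT-ND5. The cause was not tested. MT-ND3 ran from 0.51 to 0.85 and MT-ND6 from 0.33 to 0.52 over 17 alternatives each, with adjusted p from 0.038 to 0.26 and 0.12 to 0.40. The alternatives for relative levels and pairs were chosen after seeing the data, and all 56 for relative levels kept their direction. They are not independent: the 8 for MT-ND6 repeat the heavy-strand to light-strand difference with its sign turned. MT-ND2 kept its direction at only 0.0011 without UT-143 replicate 3. With the replicate block the ratio difference was -0.51 (exact sign-flip test, p = 0.25, the smallest possible). Same-numbered libraries correlated in their deviations at -0.41, 0.52 and 0.039 across transcripts, and some libraries correlated more with another number. With 3 libraries per arm, these values cannot decide whether same-numbered libraries share a batch. The unknown depth limits the precision that can be stated.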
